A study of Homo sapiens with 12 samples.

Results

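The death receptor and necroptosis genes examined were TNFSF10, TNFRSF10A, TNFRSF10B, FAS, CFLAR, CASP8, FADD, RIPK1, RIPK3 and MLKL, 10 genes chosen by name and found through the gene symbols in the array platform's probe table. Of these 10 genes, 9 had at least 1 probe with their symbol in that table, and all 9 were above background on 12 of 12 arrays and were tested, among 10529 genes tested in all. RIPK1 had no probe under its symbol in the table and was not analysed here. The cells were HDLM-2, an established Hodgkin lymphoma line, cultured for 24 hours without drug (control), with 100 nM givinostat, with 5 µM sorafenib, or with both drugs together at those concentrations (combination). Givinostat inhibits histone deacetylases, and sorafenib inhibits several kinases. Each of the 4 groups had 3 arrays, lettered A, B and C. One cell line stood for the disease, and the labels name no solvent for the control. They leave unstated whether arrays A, B and C of a group are separate cultures, so p-values measure only the spread between these arrays.

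Death receptors are surface receptors of the tumour necrosis factor receptor superfamily. Those that bind TRAIL or Fas ligand recruit the adaptor FADD and the protease caspase-8 when the ligand binds, and active caspase-8 starts apoptosis. The FLIP proteins, encoded by CFLAR, resemble caspase-8 without its protease activity and restrain its activation at the receptor. Where caspase-8 is not active, the kinases RIPK1 and RIPK3 can pass the signal on to MLKL, which permeabilises the plasma membrane in necroptosis, a lytic form of cell death.

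All 8 of the 8 Hodgkin Reed-Sternberg cell markers examined (TNFRSF8, FUT4, CCL17, IRF4, TRAF1, FSCN1, GATA3 and BATF3) were above background on all 12 arrays. None of the 5 T cell markers with a probe was above background on any array, and 3 of the 5 B cell markers with a probe were above background on no array, while MS4A1 was on 10 and CD79A on 2. Among 4 monocyte markers CSF1R was above background on all 12 arrays, and CD14 on 3, LYZ on 1 and CD163 on 1. Of 4 stromal markers COL1A1 was above background on 7 arrays and the other 3 on none. The mean deposited intensity of an array was lowest, at 1034, for sorafenib C and highest, at 1630, for control B. Sorafenib array C also lay farthest from its group, with a root mean square deviation of 0.221 on the log2 scale against 0.147 to 0.175 on the other arrays, so values that include it are given below with and without it where a call rests on it. In such bulk samples, fewer cells expressing a gene and less RNA per cell cannot be told apart.

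Of the 9 genes, 4 passed the test after givinostat alone, and their promoter sequences are shown for that reason. TNFSF10 (chr3:172505508-172523430) rose, whereas FAS (chr10:88964050-89017059), CFLAR (chr2:201116164-201176687) and MLKL (chr16:74671855-74700862) fell. Each sequence is the 250 bases before an annotated transcript start, read 5′ to 3′ on the gene's strand, from the RefSeq promoter table of GRCh38.p14. Where a gene had several starts, the first in the table is shown. Capitals mark matches on either strand to the AP-1 motif TGANTCA or the GC box GGGCGG. The GAS-like motif TTCNNNGAA was searched too and had no match in these 4 sequences. No searched motif overlapped another in them.
TNFSF10, chr3:172523431-172523680, minus strand: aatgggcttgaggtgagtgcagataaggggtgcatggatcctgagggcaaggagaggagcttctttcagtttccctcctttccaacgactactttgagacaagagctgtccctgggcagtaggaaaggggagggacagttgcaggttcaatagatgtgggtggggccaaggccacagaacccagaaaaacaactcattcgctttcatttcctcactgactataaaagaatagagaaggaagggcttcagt
FAS, chr10:88990548-88990797, plus strand: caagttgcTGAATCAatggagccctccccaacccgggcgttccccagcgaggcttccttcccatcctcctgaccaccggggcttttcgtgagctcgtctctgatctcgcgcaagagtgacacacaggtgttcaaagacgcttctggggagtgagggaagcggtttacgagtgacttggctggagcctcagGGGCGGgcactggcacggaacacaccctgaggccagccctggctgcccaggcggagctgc
CFLAR, chr2:201118466-201118715, plus strand: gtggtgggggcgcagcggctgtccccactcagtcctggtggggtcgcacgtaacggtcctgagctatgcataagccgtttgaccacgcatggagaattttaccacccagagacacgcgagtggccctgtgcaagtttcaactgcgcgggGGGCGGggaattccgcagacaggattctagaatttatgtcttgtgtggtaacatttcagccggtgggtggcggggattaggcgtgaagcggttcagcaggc
MLKL, chr16:74700863-74701112, minus strand: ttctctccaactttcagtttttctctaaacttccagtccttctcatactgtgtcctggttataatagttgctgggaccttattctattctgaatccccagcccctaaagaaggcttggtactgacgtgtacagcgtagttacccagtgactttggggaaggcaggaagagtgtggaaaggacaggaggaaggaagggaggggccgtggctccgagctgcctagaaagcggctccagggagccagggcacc

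The FAS sequence held 1 AP-1 match and 1 GC box, the CFLAR sequence held 1 GC box, and the TNFSF10 and MLKL sequences held none of the 3 motifs. The search covered 6 of the 10 genes: TNFSF10, FAS, CFLAR, CASP8, FADD and MLKL. They had 13 windows of 300 bases in all, 250 before and 50 after a start. Windows of TNFRSF10A and TNFRSF10B were left out of the search, RIPK1 was not looked up, and RIPK3 had no entry. Of those 13 windows, 7 held a GC box, 5 an AP-1 match and 1 a GAS-like match. Over all 35116 windows of 300 bases in the table, 45% held the GC box, 7.71% the AP-1 motif and 7.66% the GAS-like motif. A match describes letters in the window and says nothing of binding, and the windows of 1 gene can overlap.

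**Figure D1:**
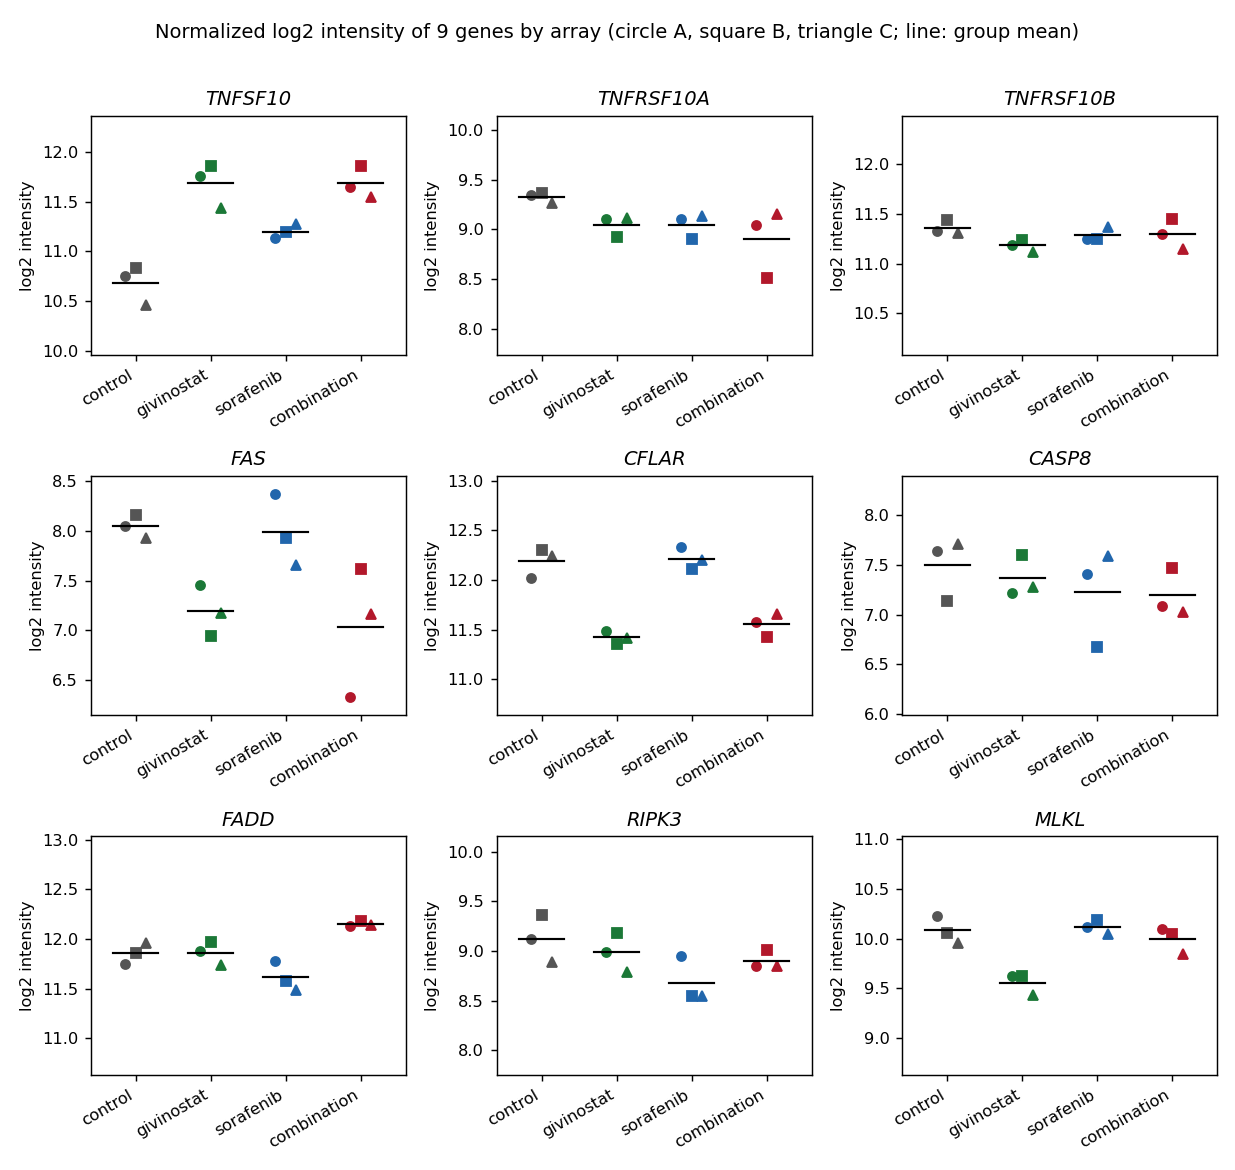
Normalized log2 intensity (vertical axis) of each of the 9 genes by group (horizontal axis), with 1 point per array and a line at the group mean. TNFSF10 was higher on every givinostat, sorafenib and combination array than on any control array, CFLAR was lower on every givinostat and combination array, and MLKL was lower with givinostat alone.

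Values below are log2 intensities after background correction and quantile normalization, and differences are log2 changes with their standard errors (SE) from a limma fit of all 12 arrays. A gene was called when its p, corrected for the 10529 genes tested (Benjamini-Hochberg), was under 0.05. A moderated F test for any difference among the 4 groups called 5 of the 9 genes, CFLAR, TNFSF10, MLKL, FADD and FAS, beside 46.6% of all genes tested. TNFRSF10A, RIPK3, TNFRSF10B and CASP8 were not called by it, with adjusted p of 0.123, 0.121, 0.424 and 0.625.

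With givinostat alone, 1 of the 9 genes rose and 3 fell, where 17.6% of all genes tested rose and 15.7% fell. With sorafenib alone, 1 of the 9 rose and none fell, where 2.99% of all genes rose and 1.59% fell, and 3 of the 9 had an unadjusted p under 0.05 in limma, as did 21.7% of all genes. With the combination, 2 rose and 3 fell, where 20.9% of all genes rose and 20.5% fell. The combination count of the 9 was 3 without control array A or B or combination array B. At those settings the count over all genes was 3657, 3760 and 3717, against 4356 with all arrays. The sorafenib count of the 9 was 0 without any 1 array other than givinostat C. At those settings the count over all genes ran from 164 to 401, against 482 with all arrays. The median log2 change over the 9 genes was -0.18 with givinostat, -0.07 with sorafenib and -0.22 with the combination, beside -0.02, 0 and -0.02 over all genes tested. These 3 comparisons share the same control arrays.

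**Figure D2:**
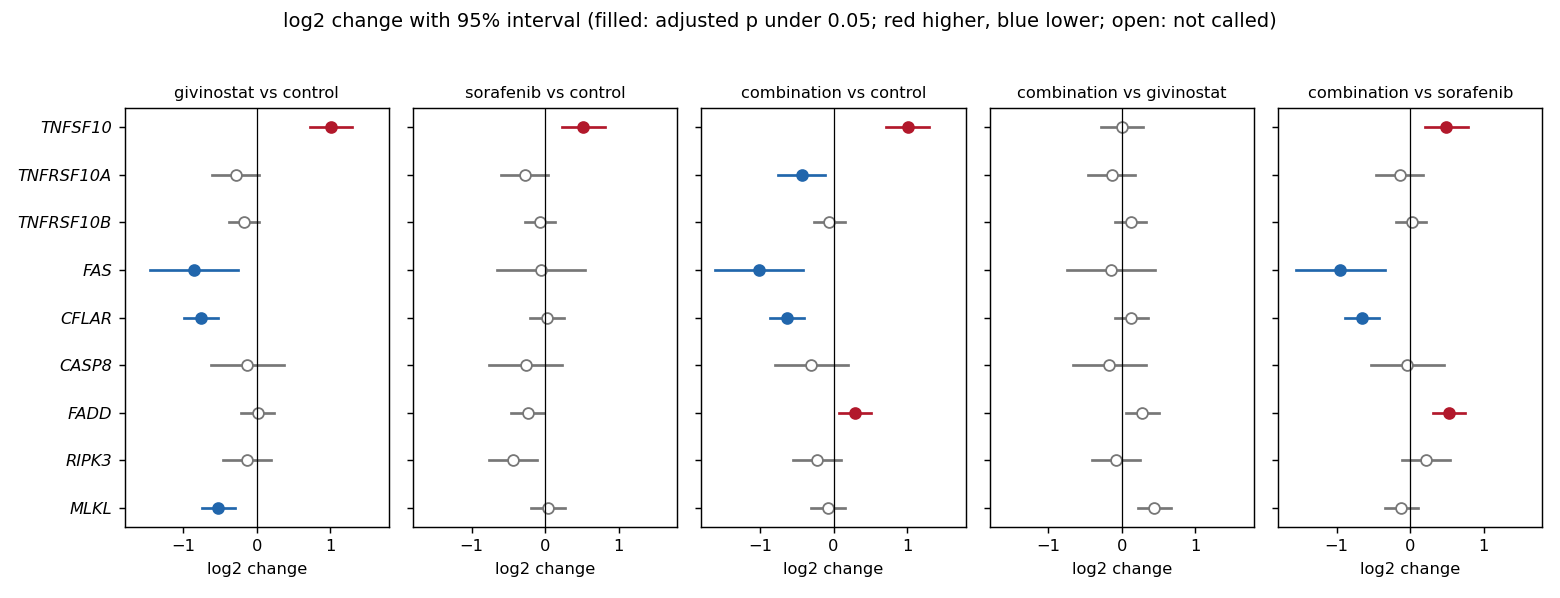
Log2 change (horizontal axis) of each of the 9 genes in 5 comparisons, with 95% intervals from the limma fit as bars. Filled points mark an adjusted p under 0.05, and the intervals for TNFSF10, FAS and CFLAR lie on the same side of 0 with givinostat and with the combination, whereas that for MLKL excludes 0 with givinostat but spans it with the combination.

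TNFSF10 encodes TRAIL, the ligand of the death receptors encoded by TNFRSF10A and TNFRSF10B. Its log2 intensity was 10.75, 10.83 and 10.46 on control arrays A, B and C, and 11.76, 11.86 and 11.44 on the givinostat arrays. It was 11.13, 11.19 and 11.27 on the sorafenib arrays, and 11.65, 11.86 and 11.55 on the combination arrays. The control arrays were the lowest 3, the sorafenib arrays lay between, and the givinostat and combination arrays overlapped each other above both. TNFSF10 rose 2.01-fold with givinostat (log2 change 1.01, SE 0.13, limma adjusted p 0.000156) and 2.01-fold with the combination (1.01, SE 0.13, adjusted p 0.000109).

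With sorafenib alone TNFSF10 rose 1.43-fold (log2 change 0.52, SE 0.13), at an adjusted p of 0.0495 that lay just under the threshold. That call was lost under 15 of 22 alternatives to the processing. Without sorafenib array C, the change was 0.48 with an adjusted p of 0.115. Under median scaling it was 0.32 with an adjusted p of 0.238. On the deposited intensity scale the sorafenib arrays (1842.3 to 2346.3) lay inside the range of the control arrays (1739.4 to 2491.3), while the givinostat arrays (2770.6 to 4304.3) lay above it. The difference between combination and givinostat was 0.00, with a 95% interval from -0.29 to 0.29, and the combination was 0.49 above sorafenib (SE 0.13, adjusted p 0.0137). Without sorafenib array C that last difference was 0.53 (adjusted p 0.0215), and without combination array B it was 0.41 (adjusted p 0.0589).

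**Figure D3:**
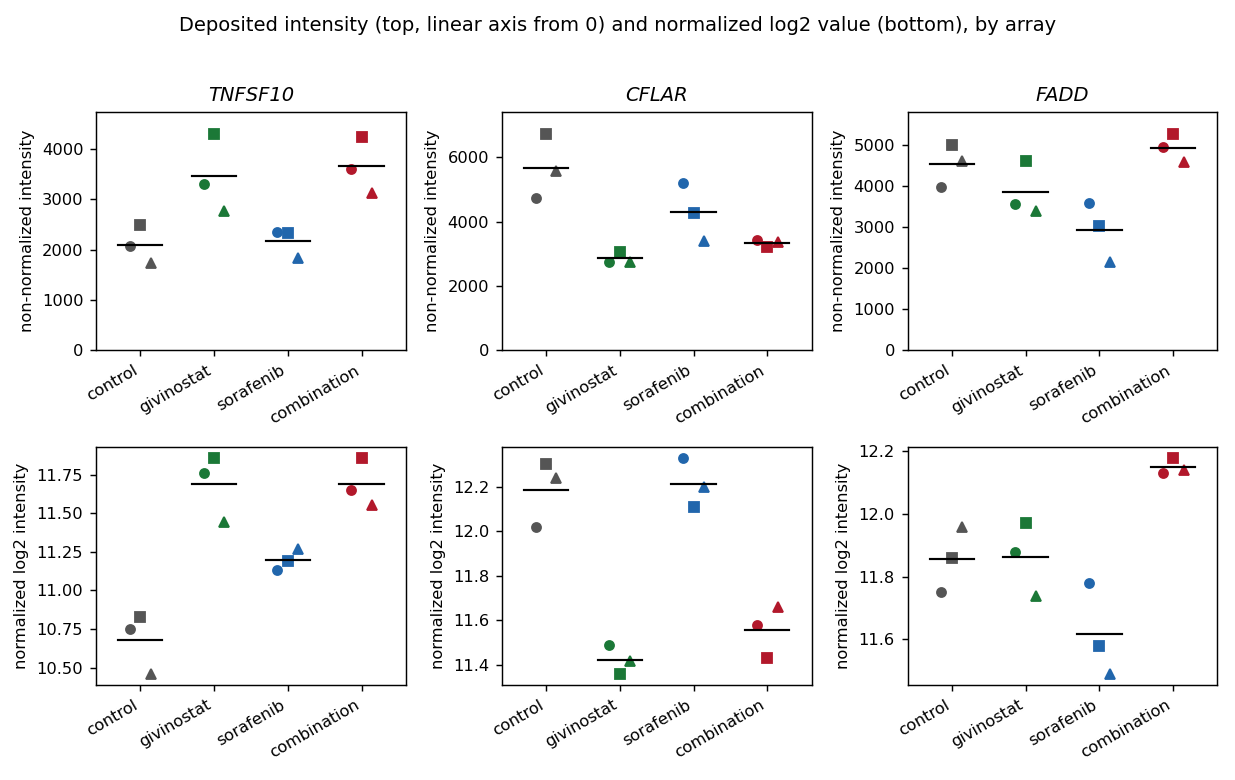
Deposited intensity on a linear axis from 0 (top) and normalized log2 intensity (bottom) of TNFSF10, CFLAR and FADD by group, with 1 point per array and a line at the group mean. The sorafenib arrays of TNFSF10 and the combination arrays of FADD overlap the control arrays before normalization and lie above them after it, whereas CFLAR is lower with givinostat and with the combination on both scales.

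Among the receptors, FAS, which binds Fas ligand, fell with givinostat. Its log2 intensity was 8.05, 8.16 and 7.93 on the control arrays and 7.46, 6.94 and 7.17 on the givinostat arrays. It was 8.37, 7.93 and 7.66 on the sorafenib arrays and 6.33, 7.62 and 7.16 on the combination arrays. The givinostat and combination arrays all lay below the control and sorafenib arrays, and the combination arrays were the most scattered (SD 0.66, n = 3). On the deposited intensity scale the givinostat arrays (323 to 349.2) and combination arrays (280.1 to 437.1) lay below the control arrays (447.4 to 524.8). Both overlapped the sorafenib arrays (317.7 to 496.2) on that scale. FAS fell by 0.86 with givinostat (SE 0.28, 1.81-fold lower, limma adjusted p 0.0312) and by 1.01 with the combination (SE 0.28, 2.01-fold lower, adjusted p 0.0117). Its change with sorafenib was -0.06, with a 95% interval from -0.66 to 0.54. The combination was 0.95 below sorafenib on the log2 scale (adjusted p 0.0189), and the change was -1.11 without sorafenib array C (adjusted p 0.0164).

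FAS was read by 1 probe, listed against 1 transcript of the gene, and whether it reads the others was not examined. The probe was dim, at 447.4 to 524.8 intensity units on the control arrays, and the fold of FAS depended on the background correction. Without that correction its log2 change was -0.43 with givinostat and -0.48 with the combination, at adjusted p of 0.00825 and 0.0031. The givinostat call was lost when any 1 control array was left out (adjusted p 0.0533 to 0.0859), as well as without givinostat array B (0.104) or C (0.0719), whereas the combination call held under all 22 alternatives. Combination array A, at 6.33, was the lowest of the 12, and without it the change with the combination was -0.65 (adjusted p 0.0367) and the difference from sorafenib was -0.59 (adjusted p 0.0609).

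TNFRSF10A, which encodes the TRAIL receptor DR4, was at 9.35, 9.37 and 9.27 on the control arrays. It was at 9.10, 8.92 and 9.11 with givinostat, at 9.10, 8.90 and 9.13 with sorafenib, and at 9.04, 8.51 and 9.15 with the combination. All 9 treated arrays lay below all 3 control arrays. Of the 3 comparisons with control, the combination passed the test (1.35-fold lower, log2 change -0.43, SE 0.15, adjusted p 0.0342). Combination array B was the lowest, and without it the change was -0.23 with an adjusted p of 0.124. The changes with givinostat (-0.29, 95% interval -0.61 to 0.03) and with sorafenib (-0.28, -0.60 to 0.04) did not pass, and whether the 3 treatments differ is not shown by that: combination minus givinostat was -0.14, with an interval from -0.46 to 0.18.

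TNFRSF10B, which encodes the TRAIL receptor DR5, was not called in any comparison. It was at 11.33, 11.44 and 11.31 on the control arrays, at 11.19, 11.24 and 11.12 with givinostat, at 11.25, 11.25 and 11.37 with sorafenib, and at 11.30, 11.45 and 11.15 with the combination. The givinostat arrays lay below the control arrays without overlap, by 0.18 on the log2 scale (95% interval -0.38 to 0.03, adjusted p 0.174), and the sorafenib and combination arrays overlapped the control. The change with the combination was -0.06 (95% interval -0.26 to 0.15). This gene had 3 probes, of which 1 was above background on no array and another on 6 of 12, and the brightest, given here, was the only 1 tested.

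CFLAR fell in both groups that received givinostat. On the control arrays it was at 12.02, 12.30 and 12.24, and on the givinostat arrays at 11.49, 11.36 and 11.42. On the sorafenib arrays it was at 12.33, 12.11 and 12.20, and on the combination arrays at 11.58, 11.43 and 11.66. The control and sorafenib arrays intermingled, and all 6 arrays with givinostat lay below all 6 without it. CFLAR fell 1.69-fold with givinostat (log2 change -0.76, SE 0.10, limma adjusted p 0.000195) and 1.55-fold with the combination (-0.63, SE 0.10, adjusted p 0.000522). With sorafenib the change was 0.03, with a 95% interval from -0.20 to 0.26.

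The deposited intensities of CFLAR ran from 4729.9 to 6725.8 on the control arrays, from 2744 to 3055.6 with givinostat and from 3222.5 to 3433.5 with the combination, without overlap between control and either. With both drugs CFLAR was 0.66 below sorafenib alone on the log2 scale (1.58-fold, adjusted p 0.000505, and -0.67 without sorafenib array C). Against givinostat alone the combination differed by 0.13 (95% interval -0.10 to 0.36, adjusted p 0.565). CFLAR was read by 1 probe, and the long and short FLIP proteins that this gene encodes were not told apart here.

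FADD, the adaptor that joins the receptors to caspase-8, had no called change with givinostat alone and was highest with both drugs. Its log2 intensity was 11.75, 11.86 and 11.96 on the control arrays and 11.88, 11.97 and 11.74 with givinostat. It was 11.78, 11.58 and 11.49 with sorafenib and 12.13, 12.18 and 12.14 with the combination. The combination arrays were the highest 3 of the 12 and the tightest group (SD 0.03, n = 3). The change with givinostat was 0.01 (95% interval -0.21 to 0.23).

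FADD rose 1.22-fold with the combination against control (log2 change 0.29, SE 0.10, limma adjusted p 0.0363) and was 1.44-fold higher than with sorafenib (0.53, SE 0.10, adjusted p 0.00183). The rise over control was 0.12 under median scaling (adjusted p 0.566), and before normalization the combination arrays (4595.4 to 5279.9) overlapped the control arrays (3986.3 to 5019.4). The call against control was also lost without control array A or B, or without any 1 combination array (adjusted p 0.0708 to 0.127). The difference from sorafenib was called under all 22 alternatives and was 0.46 without sorafenib array C (adjusted p 0.00667). With sorafenib alone FADD changed by -0.24 (unadjusted p 0.0369, adjusted p 0.193), and against givinostat the combination changed by 0.28 (unadjusted p 0.0162, adjusted p 0.181).

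CASP8 (chr2:201233463-201287711), the gene of caspase-8, was not called in any comparison by its brightest probe. This probe was at 7.64, 7.14 and 7.71 on the control arrays, at 7.22, 7.60 and 7.28 with givinostat, at 7.41, 6.68 and 7.59 with sorafenib and at 7.09, 7.47 and 7.03 with the combination. All groups overlapped, and the intervals were wide: -0.63 to 0.37 for givinostat and -0.80 to 0.20 for the combination. The probe was dim, at 351.6 to 410.6 intensity units on the control arrays.

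CASP8 had 4 probes, more than any of the other genes, and their signals differed. The probe ILMN_1809313 was above background on no array. The probe ILMN_1787749 was above background on 6 of 12 arrays, 2 of them control, 0 givinostat, 1 sorafenib and 3 combination. It passed the detection filter through the combination group alone. Its log2 intensity reached 7.60 on sorafenib array A against 5.61 to 6.70 on the other 11, and it was not called. The probe ILMN_2377733 was above background on 8 of 12 arrays, 3 of them control, 1 givinostat, 2 sorafenib and 2 combination.

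ILMN_2377733 was at 6.73, 6.84 and 6.43 on the control arrays, at 6.12, 6.20 and 6.39 with givinostat, at 6.63, 6.15 and 6.52 with sorafenib and at 6.38, 6.11 and 6.25 with the combination. The givinostat and combination arrays lay below the control arrays, and the sorafenib arrays overlapped them. This probe passed the detection filter through the control group alone, and 1 of 3 givinostat and 2 of 3 combination arrays were above background, so its differences are not read as measured folds. In a limma fit of each of 14039 probes singly, 5 of the 11 probes of the 9 genes were called with givinostat, 6 with the combination, 4 between combination and sorafenib and 0 with sorafenib. Over all 14039 probes the called shares were 31.2%, 38.9%, 32.4% and 3.46%. ILMN_2377733 was 1 of the 5 and 1 of the 6, and the TNFSF10 probe was not called with sorafenib in that fit.

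**Figure D4:**
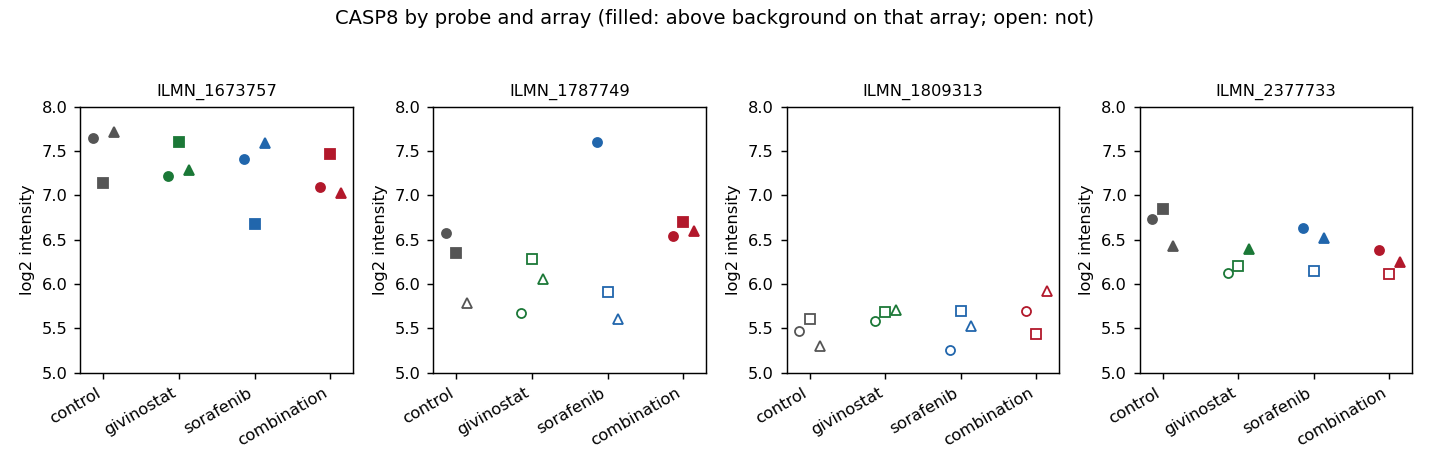
Normalized log2 intensity (vertical axis) of the 4 CASP8 probes by group, with 1 point per array, filled where the probe was above background on that array. ILMN_1673757, which stands for the gene, was above background on 12 of 12 arrays with overlapping groups, and ILMN_2377733 was above background on 1 of 3 givinostat arrays.

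MLKL, the effector of necroptosis, fell with givinostat alone. It was at 10.23, 10.06 and 9.96 on the control arrays and at 9.62, 9.62 and 9.43 on the givinostat arrays. It was at 10.12, 10.19 and 10.05 with sorafenib and at 10.10, 10.05 and 9.85 with the combination. The givinostat arrays were the lowest 3 of the 12, and the other 3 groups overlapped. The decrease with givinostat was 1.44-fold (log2 change -0.53, SE 0.11, limma adjusted p 0.00239) and was called under all 22 alternatives.

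With the combination MLKL changed by -0.08 against control (95% interval -0.31 to 0.15), and its level was 0.44 above that with givinostat alone (95% interval 0.22 to 0.67). That difference had an unadjusted p of 0.00116 and an adjusted p of 0.0657, which missed the threshold, and the arrays of the 2 groups did not overlap. It was called under 4 of 22 alternatives, among them no background correction (0.37, limma adjusted p 0.0355) and array weights (0.43, adjusted p 0.0369). Another of the 4, the authors' normalized table (0.37, adjusted p 0.0357), nearly repeated no background correction and is not a separate check. Over all alternatives the adjusted p of this difference ran from 0.0355 to 0.178. With sorafenib alone MLKL changed by 0.04 (95% interval -0.19 to 0.27).

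RIPK3 (chr14:24336025-24339991), the kinase that acts on MLKL, was not called in any comparison. It was at 9.12, 9.36 and 8.89 on the control arrays, at 8.99, 9.18 and 8.79 with givinostat, at 8.95, 8.55 and 8.55 with sorafenib and at 8.85, 9.01 and 8.85 with the combination. Sorafenib arrays B and C were the lowest of the 12, and sorafenib array A overlapped the control. The change with sorafenib was -0.44 (95% interval -0.76 to -0.11, unadjusted p 0.0125, adjusted p 0.114), and it was -0.37 without sorafenib array C. The intervals were -0.46 to 0.19 with givinostat and -0.55 to 0.10 with the combination.

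Adding sorafenib to givinostat gave no call among the 9 genes in limma, with 2 of 9 at an unadjusted p under 0.05 (MLKL and FADD), as were 17.1% of all genes tested. Of all genes, 0.845% were called higher and 0.494% lower there. Adding givinostat to sorafenib gave 2 genes higher (TNFSF10 and FADD) and 2 lower (CFLAR and FAS), where 17.8% of all genes were higher and 17.5% lower. The interaction set the log2 change under the combination against the 2 single-drug changes added together. It called none of the 9 genes and 0.0095% of all genes in each direction, with 3 of the 9 at an unadjusted p under 0.05 in limma beside 10.9% of all genes. Those 3 were FADD (0.52, SE 0.14, adjusted p 0.272), TNFSF10 (-0.52, SE 0.19, adjusted p 0.354) and MLKL (0.41, SE 0.15, adjusted p 0.356). For FADD and MLKL the combination change was above the added single-drug changes, and for TNFSF10 it was below it, each short of the threshold.

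Beside these genes, 44 other genes of the death receptor and necroptosis pathways were listed, of which 38 had a probe and 33 were tested. With givinostat 3 of the 33 rose and 5 fell, with sorafenib 1 rose and none fell, and with the combination 7 rose and 3 fell. With sorafenib 4 of the 33 had an unadjusted p under 0.05 in limma, as did 21.7% of all genes. Over all genes tested 17.6% rose and 15.7% fell with givinostat, 2.99% and 1.59% with sorafenib, and 20.9% and 20.5% with the combination. Without control array C, 5 of the 33 were called with givinostat, and without sorafenib array A or C, 2 were called with sorafenib. Over all 10529 genes the givinostat count was 2969 without control array C, against 3509 with all arrays. The sorafenib count over all genes was 401 without sorafenib array A and 247 without C, against 482 with all arrays. Over the 33 genes the median log2 changes were -0.10, -0.05 and -0.11. TRAF2, BIRC3, SPATA2 and PDCD6IP were among the listed genes not analysed here, and TNFRSF10D, TNFRSF11B, FASLG, TNFRSF1A and PGAM5 did not pass the detection filter.

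TNFRSF21, which encodes the death receptor DR6, had the largest change of the 33 in each of the 3 comparisons with control. It was at 7.09, 7.58 and 7.20 on the control arrays, at 9.33, 9.30 and 9.43 with givinostat, at 8.57, 8.55 and 8.46 with sorafenib and at 9.44, 9.55 and 9.71 with the combination. Control, sorafenib and the givinostat-treated groups lay in 3 separate ranges. It rose 4.17-fold with givinostat (log2 change 2.06, SE 0.12, limma adjusted p 3.58e-07), 2.35-fold with sorafenib (1.23, adjusted p 0.00041, and 1.27 without sorafenib array C, adjusted p 0.00177) and 4.83-fold with the combination (2.27, adjusted p 1.59e-07). TNFRSF25, the gene of the death receptor DR3, fell by 0.84 with the combination (adjusted p 0.00339) and by 0.57 with givinostat (adjusted p 0.0329), and TNF, the gene of the founding ligand of the superfamily, rose by 0.60 with givinostat (adjusted p 0.0456).

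BID, which caspase-8 cleaves to carry the signal to mitochondria, was at 9.61, 9.77 and 9.96 on the control arrays, at 8.82, 8.53 and 8.73 with givinostat and at 8.84, 8.83 and 8.80 with the combination. It fell 2.13-fold with givinostat (log2 change -1.09, SE 0.11, adjusted p 2.45e-05) and 1.94-fold with the combination (-0.96, SE 0.11, adjusted p 4.67e-05). FAIM, the Fas apoptosis inhibitory molecule, fell by 0.46 with givinostat (adjusted p 0.00385) and by 0.75 with the combination (adjusted p 0.000121). CASP6, an executioner caspase, and RBCK1, a subunit of the linear ubiquitin ligase, each fell by 0.54 with givinostat (adjusted p 0.00841 and 0.0115).

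PEA15, a death effector domain protein, rose by 0.35 with givinostat (adjusted p 0.0148) and by 0.38 with the combination (adjusted p 0.00827). MAPKAPK2, a kinase that phosphorylates RIPK1, rose by 0.47 with the combination (adjusted p 0.00439), and TICAM1, a Toll-like receptor adaptor able to engage RIPK1 and RIPK3, rose by 0.50 (adjusted p 0.0152). Against sorafenib alone, 6 of the 33 were higher and 5 lower with the combination, where 17.8% of all genes were higher and 17.5% lower. Among them TNFRSF21 was higher by 1.04, MAPKAPK2 by 0.62, TICAM1 by 0.56 and TNFAIP3, a ubiquitin-editing enzyme, by 0.36. FAIM was lower, with a log2 change of -0.93, as were TNFRSF25 at -0.86, BID at -0.67 and TLR3, a receptor for double-stranded RNA, at -0.49. Without sorafenib array C these 8 genes were still called, at 1.01 for TNFRSF21, 0.58 for MAPKAPK2, 0.41 for TICAM1, 0.36 for TNFAIP3, -0.87 for FAIM, -0.80 for TNFRSF25, -0.68 for BID and -0.43 for TLR3. Against givinostat alone none of the 33 was called in limma, where 0.845% of all genes were higher and 0.494% lower. Of the 33, 6 had an unadjusted p under 0.05 there, as did 17.1% of all genes. The interaction called none of the 33, beside 0.0095% of all genes in each direction. Its unadjusted p was under 0.05 for 8 of the 33, as for 10.9% of all genes.

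**Figure D5:**
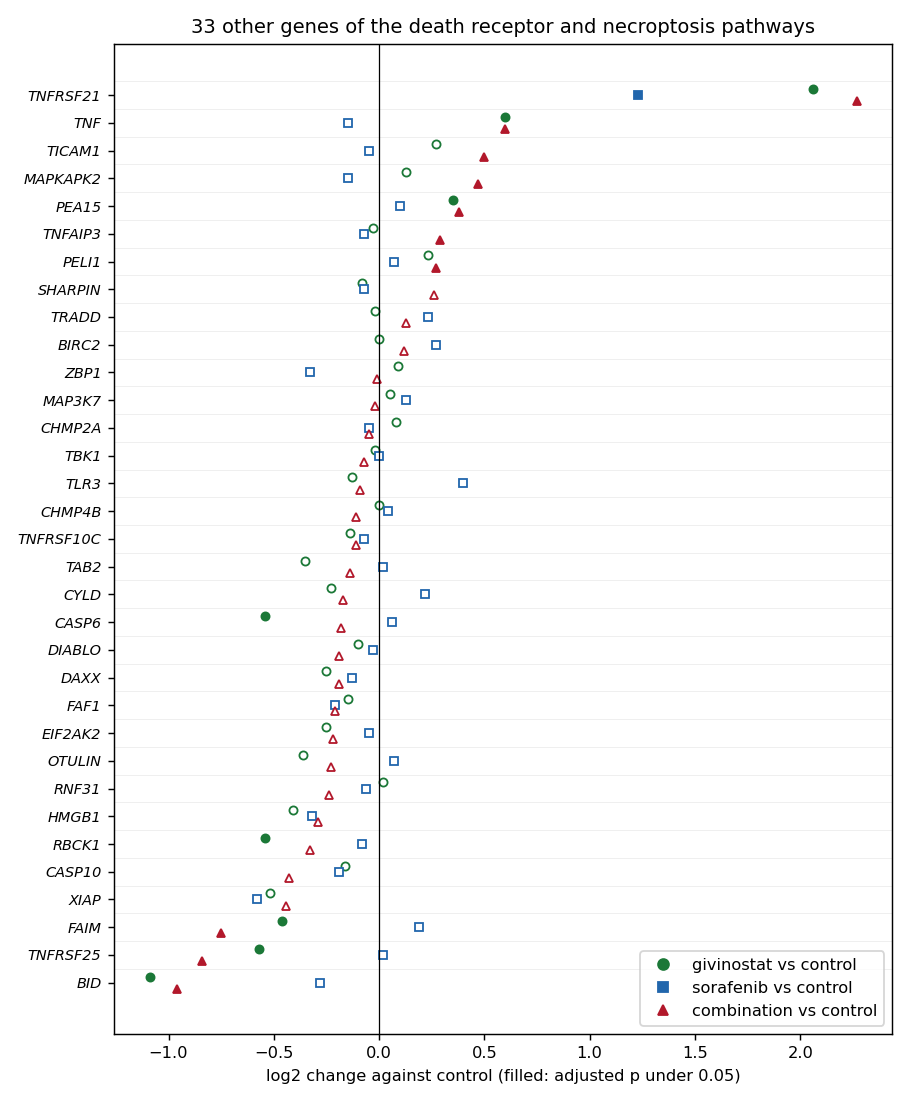
Log2 change against control (horizontal axis) of the 33 other pathway genes with givinostat, sorafenib and the combination, filled where the adjusted p was under 0.05. TNFRSF21 stands far to the right in all 3 comparisons, and BID is the lowest with givinostat and with the combination.

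For the 3 genes with the smallest F-test p, the genes tested whose log2 intensity correlated most closely over the 12 arrays were identified. For CFLAR these were STAT6 (Pearson r 0.987), DIS3L (0.98) and RGS14 (0.978), and the lowest correlation was with PLS1 (-0.983). STAT6, a transcription factor activated by interleukin receptors, changed by -0.79 with givinostat, 0.08 with sorafenib and -0.65 with the combination, beside -0.76, 0.03 and -0.63 for CFLAR. For TNFSF10 they were MAGEE1 (0.983), DACT1 (0.98) and SLC48A1 (0.974), and the lowest was SREK1IP1 (-0.969). MAGEE1 changed by 0.96, 0.45 and 0.93 in the same order of treatments. For MLKL they were SH3PXD2A (0.932), RAB11FIP1 (0.918) and IVNS1ABP (0.901), and the lowest was PDLIM5 (-0.912). SH3PXD2A changed by -0.69, 0.05 and -0.17, beside -0.53, 0.04 and -0.08 for MLKL. The arrays fall into drug groups that these coefficients reflect, so they describe likeness of pattern over these 12 arrays.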

How the data were processed

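Biotin-labelled RNA from HDLM-2 cells was hybridised to 12 Illumina HumanHT-12 V3 arrays. BeadStudio was used, per the submitters' processing notes, and its version is not given in the sources used here. The deposited non-normalized file holds 1 intensity for each of 48803 probes per array, from 69.7 to 72773. The deposited column headed as detection p-value is a fraction that increases with intensity (Spearman correlation at least 0.992 per array). Its complement was therefore taken as the detection p. The authors' normalized table of linear intensity was used as an alternative.

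Intensities were background-corrected with limma 3.58.1 (normexp from detection p-values, offset 16), then quantile normalized, and log2 values were taken, in R 4.3.3 with the data.table package (version 1.17.8). Testing required a detection p under 0.05 throughout at least 1 group's 3 arrays, and 16927 probes passed. Of the 48803 probes, 28098 had 1 symbol in the probe annotation of the platform, 13 had several and 20692 had none, and symbols were updated through Entrez identifiers to the RefSeq table of GRCh38.p14. Of the passing probes 14039 had 1 symbol, and the brightest probe stood for each of 10529 genes.

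A limma model with 1 mean per group used all 12 arrays and had 8 residual and 4.04 prior degrees of freedom. Its two-sided p-values were adjusted by Benjamini-Hochberg across the 10529 genes. The number of arrays, 3 a group, limits the precision. The alternatives changed the background correction, offset, normalization, source table, detection filter, probe summary, groups in the fit, array weights and array-letter block, or left out 1 array. The model did not pair arrays by the letters A, B and C, and the labels do not say whether these letters pair them. The deviations of 5 of 18 same-letter pairs correlated above 0.1 (range -0.0594 to 0.255). Pairs of unlike letter were not set beside them, so these values cannot decide whether the arrays are paired. All 9 measured genes were named in every comparison, and from the other pathway genes up to 4 called genes with the smallest p in each direction. Other named genes were the 3 with the highest and the 1 with the lowest correlation to each of the 3 genes of smallest F-test p. The genes and lists were chosen with earlier results of these data known. Arrays of treatment in animals, which the series title mentions, were not analysed here.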

Additional observations from a re-analysis of the deposited data

How the results depend on the processing

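Of 14 calls among the 9 genes, 8 held under all 22 alternatives: TNFSF10 with givinostat (log2 change 0.87 to 1.14) and with the combination (0.86 to 1.08), CFLAR with givinostat (-0.93 to -0.70), with the combination (-0.79 to -0.57) and between combination and sorafenib (-0.71 to -0.60), MLKL with givinostat (-0.65 to -0.43), FAS with the combination (-1.30 to -0.48) and FADD between combination and sorafenib (0.46 to 0.61). The other 6 were lost under between 1 and 15 alternatives. These were TNFSF10 with sorafenib (15), FADD with the combination (7), FAS with givinostat (6), TNFRSF10A with the combination (6), FAS between combination and sorafenib (4) and TNFSF10 between combination and sorafenib (1). The cause was not tested beyond what the alternative itself changed, such as 1 array fewer or more genes tested. Gained calls were MLKL between combination and givinostat and, without combination array B, TNFRSF10A with givinostat (-0.29, adjusted p 0.0441).

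The count of the 9 genes called with sorafenib was 0 under median scaling, with no detection filter, with array weights and with the compared groups only. It was 0 to 1 when single arrays were left out, at 1 without givinostat array C and 0 without any other. The sorafenib count over all genes was 482 in the main fit. It was 445 under median scaling, 214 of 18852 with no detection filter, 512 with array weights and 75 with the compared groups only. With single arrays left out it ran from 164 to 417. With the combination the count of the 9 genes was 3 with no detection filter and 3 to 5 when single arrays were left out. It was 3 without control array A or B or combination array B. The combination count over all genes was 4356 in the main fit and 3817 of 18852 with no detection filter. It was 3657 and 3760 without control array A and B, and 3717 without combination array B. Between combination and givinostat the count of the 9 genes was 1 with no background correction, with the authors' normalized table, with the array letter as a replicate block (MLKL 0.44, limma adjusted p 0.0372) and with array weights. Over all genes the count between combination and givinostat was 306, 306, 131 and 358 at these settings, in that order, against 141 in the main fit. Under the replicate block the sorafenib count over the 33 other pathway genes was 2, and it moved no other count of the 9 or the 33 genes beyond 1.5 times. That sorafenib count was 2 with detection on all 12 arrays, 3 with array weights and 1 to 2 when single arrays were left out, at 2 without sorafenib array A or C. Over all genes the sorafenib count was 420 under the replicate block and 537 of 9353 with detection on all 12 arrays. The givinostat count of the 33 genes ran from 5, without control array C, to 11, and their interaction count from 0 to 1, without control array B.

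Changes that turned sign were below the threshold both before and after. Under median scaling the median of all genes was -0.12 with givinostat, -0.17 with sorafenib and 0.19 in the interaction. Under quantile normalization those medians were -0.02, 0 and -0.01. With median scaling FADD was at -0.15 with givinostat, and CFLAR at -0.17 and MLKL at -0.14 with sorafenib. CASP8 was then at 0.16 between combination and sorafenib and FAS at 0.13 in the interaction. Averaging a gene's probes gave CASP8 0.15 between combination and givinostat and 0.01 between combination and sorafenib, where array weights gave 0.14. Leaving out single arrays gave ranges that span 0 for FADD with givinostat (-0.05 to 0.07), for FAS (-0.25 to 0.10), CFLAR (-0.05 to 0.09), CASP8 (-0.44 to 0.01) and MLKL (-0.02 to 0.11) with sorafenib, and for TNFRSF10B with the combination (-0.13 to 0.02). Between combination and givinostat they did so for TNFSF10 (-0.13 to 0.09, at 0.00 with all arrays), TNFRSF10A (-0.27 to 0.06), FAS (-0.44 to 0.20) and RIPK3 (-0.18 to 0.01). Between combination and sorafenib they did so for TNFRSF10A (-0.27 to 0.05), TNFRSF10B (-0.06 to 0.09) and CASP8 (-0.31 to 0.14), and in the interaction for FAS (-0.38 to 0.26) and CASP8 (-0.18 to 0.27).

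Over all genes tested the count with sorafenib, 482, fell to 75 with the compared groups only, to 214 with no detection filter and to 164 at the lowest when single arrays were left out. The count between combination and givinostat, 141, ran from 32 when an array was left out to 358 with array weights. Signals near background limit FAS and CASP8.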
